A study of Homo sapiens with 6 samples.

Results

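The MCM genes encode the replicative DNA helicase and its relatives, and 9 of them, MCM2 to MCM10, are described here in the HCT116 line, derived from a human colorectal carcinoma, with and without oxaliplatin. Members were chosen by gene symbol among the 27942 genes of the deposited table. Each of the 9 symbols matched 1 gene, and all 9 passed the filter on low counts that left 13727 genes for testing. RNA was sequenced from 3 libraries of untreated cells (NT) and 3 libraries of cells kept for 24 h in 0.5 µM oxaliplatin (OXA), a platinum compound that forms DNA adducts. All samples came from the same line, grown in RPMI medium with serum. The libraries were made from polyadenylated RNA with a stranded kit, and neither the labels nor the paper say whether replicates were separate cultures, so p-values measure only the spread between these libraries.

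In eukaryotic cells the proteins MCM2 to MCM7 assemble into a ring of 6 different subunits. During G1 the origin recognition complex, CDC6 and CDT1 load these rings onto DNA as an inactive head-to-head pair, a step called origin licensing. In S phase the rings are activated by the joining of CDC45 and the GINS complex, which yields the CMG helicase that unwinds DNA ahead of the fork. MCM8 and MCM9 form a separate helicase complex with a role in homologous recombination. MCM10 shares the name but not the helicase fold, and it takes part in the activation of the loaded rings and in fork progression. Transcription of many of these genes is known to be driven by E2F factors at the passage from G1 to S and to be held down by the p53 and p21 pathway.

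Library totals lay between 32979521 and 40967880 counts. The treatment check showed the labelled difference, with CDKN1A, which encodes the cell cycle inhibitor p21, raised in every OXA library (log2 fold change 2.93, SE, the standard error, 0.15, edgeR adjusted p = 0.000445). The cyclin E2 gene CCNE2 was lowered (log2 fold change -1.17, SE 0.14, edgeR adjusted p = 0.00615). All 6 epithelial markers looked up (EPCAM, CDH1, KRT8, KRT18, KRT19 and CLDN4) had at least 1855 counts in every library. The 8 markers of blood, endothelial and fibroblast cells summed to between 286 and 505 counts in NT and between 426 and 471 in OXA. Most of these came from COL1A1, with 107 to 273 counts in a library, and CD68, with 152 to 237. VWF had 13 to 29, PDGFRB 4 to 18 and PECAM1 1 to 7, while PTPRC, CD3E and COL1A2 had at most 2 counts in a library. NT library 1 stood apart from the other NT libraries. Its chi-square per gene against them was 83.1 and 75.7, whereas that between NT libraries 2 and 3 was 21.4, and none of the 6 pairs of libraries within a group was a repeat.

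The letters that E2F factors are known to bind are shown first, because they are a feature shared by several members that the choice of genes did not use. The sequences are RefSeq promoter windows on GRCh38.p14, reaching from 250 bases before a gene's start to 50 bases after it. Windows were held for 7 of the 9 members, MCM2, MCM3, MCM6, MCM7 (with 3 starts), MCM8, MCM9 and MCM10. The search counted exact matches on both strands to TTTGGCGC, TTTCGCGC, TTTCCCGC or TTTGCCGC. Of the 7 members, 5 held at least 1 such match, against 3.99% of the 27305 genes with a window. Matches are given below in capitals with the flanking bases in lower case, 5′ to 3′ on the strand of the gene.
MCM2, chr3:127598404-127598433, plus strand: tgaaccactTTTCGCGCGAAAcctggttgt
MCM3, chr6:52284900-52284925, minus strand: gatggtacgTTTCCCGCcaccgcggg
MCM3, chr6:52284730-52284755, minus strand: ttcggaagtTTTCGCGCcggggtgga
MCM6, chr2:135876575-135876604, minus strand: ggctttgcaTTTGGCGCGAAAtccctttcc
MCM6, chr2:135876513-135876542, minus strand: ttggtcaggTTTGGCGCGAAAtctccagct
MCM7, chr7:100101568-100101593, minus strand: gctcggaccGCGGGAAAcccggcgcc
MCM7, chr7:100101390-100101415, minus strand: ggggcgacgTTTCGCGCcaatttcgg
MCM8, chr20:5950669-5950694, plus strand: atcactgaaGCGCCAAAaaagaattt

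MCM6 held the same 12 letters at both of its matches, the first beginning 152 bases before the start and the other 90 bases before it, and in each of them a match on the plus strand of the gene overlapped one on the minus strand. MCM2 held 12 letters of the same build within the first bases after its start. MCM9 and MCM10 had no match in their windows, and among the 3 MCM7 windows only the one of the most upstream start had any. The CCAAT box, searched as CCAAT on both strands, was found in 6 of the 7 members (all but MCM2) against 39.7% of all genes. The CHR letters TTTGAA and TTTAAA were found in 0 of the 7, against 27.9% of all genes. A match of letters is a description of the window and not a mapped binding site. The upstream 250 bases of MCM6, the member with the largest difference between OXA and NT, are given with E2F-type matches and CCAAT boxes in capitals.
MCM6, chr2:135876444-135876693, minus strand: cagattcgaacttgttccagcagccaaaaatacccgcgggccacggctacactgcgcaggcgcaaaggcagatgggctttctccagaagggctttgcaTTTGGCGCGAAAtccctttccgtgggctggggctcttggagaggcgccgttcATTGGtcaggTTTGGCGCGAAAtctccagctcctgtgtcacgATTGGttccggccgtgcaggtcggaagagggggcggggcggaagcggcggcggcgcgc

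To ask whether oxaliplatin changed the mRNA of the helicase genes, OXA was compared with NT in a fit across all tested genes. All 9 MCM genes had a log2 fold change below 0, as did 46.7% of the tested genes, and 5 of them (MCM3, MCM4, MCM6, MCM7 and MCM10) were lower at an adjusted p-value under 0.05, whereas 2.29% of the tested genes were called lower. None was called higher by edgeR, DESeq2 or limma-voom, against 2.78% of the tested genes in edgeR, and at an unadjusted p-value under 0.05 the count was 9 lower and 0 higher, against 11.1% and 10.7% of the tested genes. Their log2 fold changes ran from -1.01 in MCM6 to -0.52 in MCM9, with a median of -0.60, against a median of 0.023 over all tested genes. A log2 fold change under -0.5 was found in all 9 and in 6.01% of the tested genes. In 7 of the 9 every OXA library lay below every NT library, which was the case for 14.4% of the tested genes. DESeq2 called 8 of the 9 lower, all but MCM5, against 4.41% of the 13121 genes to which it gave an adjusted p-value. With limma-voom 5 were called, against 2.11% of the tested genes. In bulk RNA, fewer cells in the phase that uses a gene and less of its RNA in each cell cannot be told apart.

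**Figure D1:**
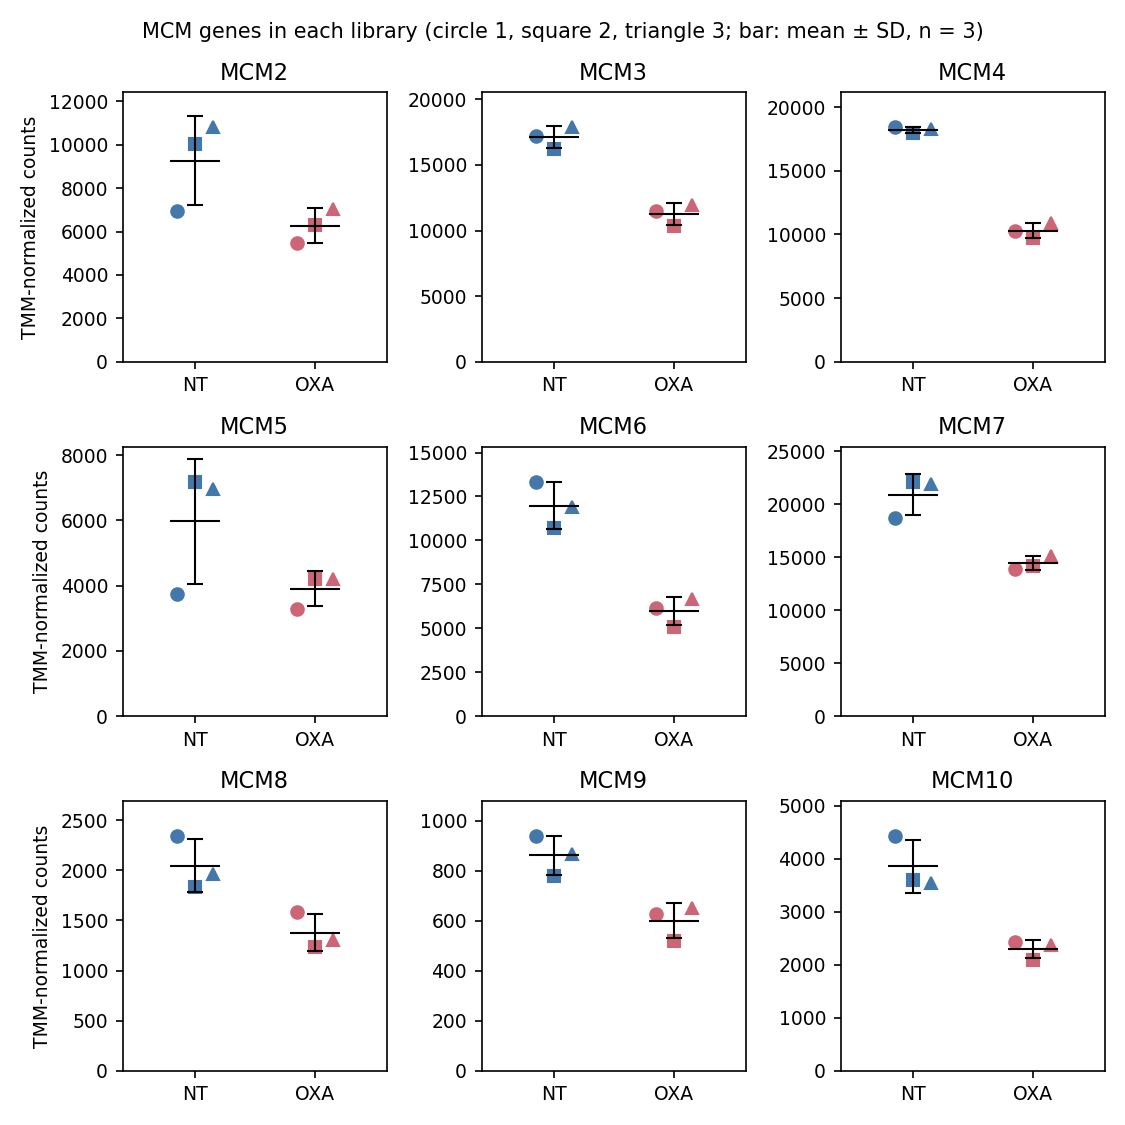
TMM-normalized counts (y axis, from 0) of each MCM gene in the 3 NT (blue) and 3 OXA (red) libraries, with circle, square and triangle for libraries 1, 2 and 3 and bars for mean ± SD. The groups are apart in 7 genes, while in MCM2 and MCM5 NT library 1 sits among the OXA libraries.

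Among the ring subunits, MCM6 (chromosome 2 of GRCh38, 135839626 to 135876443, minus strand, 17 exons in its canonical transcript) had 13341, 10694 and 11909 normalized counts in NT libraries 1 to 3 and 6138, 5097 and 6667 in OXA libraries 1 to 3. The highest OXA library thus stayed well under the lowest NT library. The OXA level was 49.8% of the NT level (log2 fold change -1.01, SE 0.13, edgeR adjusted p = 0.00845). MCM6 kept its call in 5 of the 6 leave-one-out fits, and without OXA library 1 the edgeR adjusted p was 0.0584.

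MCM4 encodes a further subunit of the ring, lies on chromosome 8 and was the member with the smallest p-value. It had 18424, 17978 and 18250 normalized counts without oxaliplatin and 10287, 9702 and 10903 with it. The NT libraries were nearly level (18217 ± 225, SD, n = 3), and the OXA libraries (10297 ± 601) were all far below them. The log2 fold change came to -0.82 (SE 0.082, edgeR adjusted p = 0.00365), and it passed whichever of the 6 libraries was left out.

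For MCM3 (chromosome 6, 52264014 to 52284881, minus strand), the values were 17198, 16227 and 17880 normalized counts without oxaliplatin and 11485, 10348 and 11972 with it. The groups did not overlap, and the log2 fold change came to -0.60 (SE 0.091, edgeR adjusted p = 0.0139). The call was lost without NT library 3 (edgeR adjusted p = 0.0528), without OXA library 1 (0.0878) and without OXA library 2 (0.0763), at log2 fold changes between -0.62 and -0.54.

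MCM7 (chromosome 7, 100092233 to 100101940, minus strand) carries the microRNA genes MIR25, MIR93 and MIR106B within its bounds. It was the most abundant member per transcript length, and had 18691, 22114 and 21854 normalized counts without oxaliplatin and 13867, 14206 and 15137 with it. All OXA libraries were below all NT libraries (log2 fold change -0.54, SE 0.097, edgeR adjusted p = 0.0246). This call held without NT library 1 (edgeR adjusted p = 0.00375) but in none of the other 5 fits that left out a library, where the edgeR adjusted p reached 0.140.

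MCM2 and MCM5, the other subunits, are neighbours in the ring and form the gate through which DNA enters. MCM2 (chromosome 3, 127598410 to 127622436, plus strand) had 6949, 10045 and 10815 normalized counts without oxaliplatin and 5480, 6300 and 7057 with it. NT library 1 lay below OXA library 3, so the groups overlapped, and the log2 fold change of -0.56 did not pass (SE 0.17, edgeR adjusted p = 0.113). MCM5 (chromosome 22, 35400134 to 35425431, plus strand) had 3755, 7187 and 6964 normalized counts without oxaliplatin and 3291, 4208 and 4214 with it. Here NT library 1 was lower than OXA libraries 2 and 3, and the log2 fold change of -0.61 did not pass either (SE 0.24, edgeR adjusted p = 0.192). Without NT library 1, both genes passed, MCM2 at -0.73 on the log2 scale (edgeR adjusted p = 0.00603) and MCM5 at -0.86 (edgeR adjusted p = 0.00337).

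MCM10 (chromosome 10, 13161558 to 13211110, plus strand) had 4422, 3592 and 3542 normalized counts without oxaliplatin and 2424, 2096 and 2370 with it. No OXA library reached the lowest NT library (log2 fold change -0.75, SE 0.12, edgeR adjusted p = 0.0153). The call was lost when OXA library 1, 2 or 3 was left out, with an edgeR adjusted p of 0.0783, 0.0797 and 0.0661.

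The pair outside the ring differed by similar amounts without passing the threshold. MCM8 (chromosome 20, 5950652 to 5998977, plus strand) had 2342, 1837 and 1959 normalized counts without oxaliplatin and 1586, 1235 and 1306 with it (log2 fold change -0.57, SE 0.14, edgeR adjusted p = 0.0578). MCM9 (chromosome 6, 118813442 to 118935162, minus strand) had 937, 779 and 865 in NT and 627, 520 and 650 in OXA (log2 fold change -0.52, SE 0.13, edgeR adjusted p = 0.0655). In both genes the groups did not overlap. Without NT library 1 MCM8 passed (edgeR adjusted p = 0.0472, log2 fold change -0.46), whereas MCM9 did not pass, whichever library was left out.

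Some members share their ground with other genes of the deposited table. The gene listed as AL035461.3 overlaps MCM8 on the same strand and had between 202 and 459 counts in a library, so how reads were divided between the pair is uncertain. ASF1A lies on the opposite strand within MCM9, with 1027 to 1584 counts, and AP4M1, which runs the other way, begins within the bounds of MCM7, with 336 to 552 counts. The strand setting of the counting is not given in the sources used here. None of the 3 was called by edgeR (log2 fold changes 0.17 for AL035461.3, -0.16 for ASF1A and -0.14 for AP4M1).

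**Figure D2:**
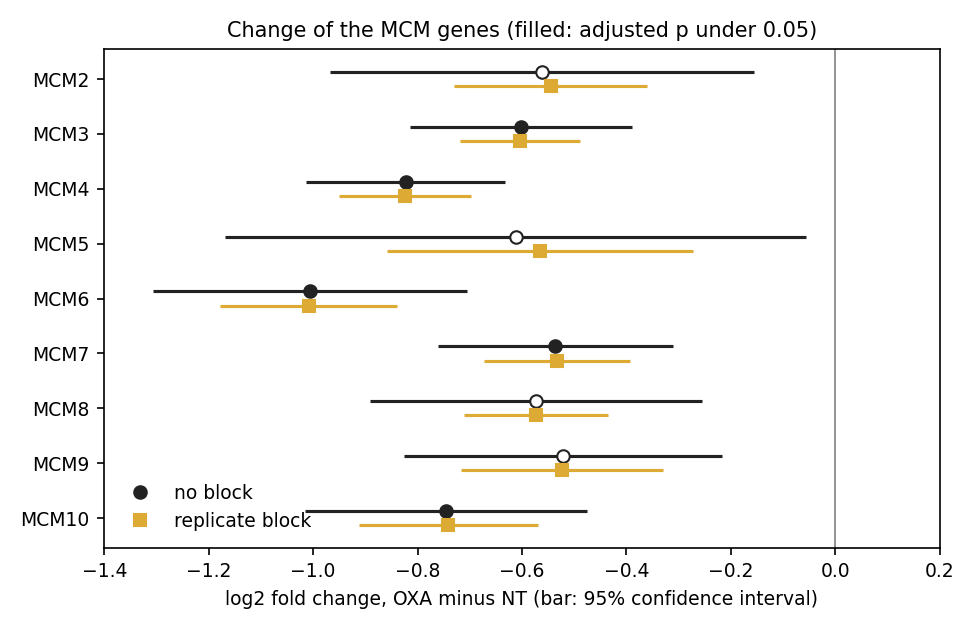
Log2 fold change of each MCM gene (x axis, OXA minus NT) with its 95% confidence interval, without a block (black circles) and with replicate number blocked (yellow squares), filled where the edgeR adjusted p is under 0.05. All intervals lie below 0, and with the block all 9 genes are filled.

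NT and OXA libraries with the same number strayed from their group means in the same direction, so the fit was also run with this number as a blocking term. With this replicate block, all 9 MCM genes were called lower, against 10.9% of the tested genes. The edgeR adjusted p then lay between 0.00125 for MCM4 and 0.0244 for MCM5, and the log2 fold changes stayed between -1.01 and -0.52. For the genes that had missed the threshold it was 0.00822 for MCM2, 0.0244 for MCM5, 0.00366 for MCM8 and 0.0101 for MCM9. Taken pair by pair, OXA minus NT was negative in all 3 pairs of all 9 genes. The share of all tested genes with this pattern was not computed. MCM8 was the most even, at -0.56, -0.57 and -0.58 on the log2 scale, and MCM5 the least, at -0.19 in pair 1, -0.77 in pair 2 and -0.72 in pair 3.

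The divergence of NT library 1 followed the GC content of the members. MCM5, MCM2 and MCM7, whose canonical transcripts have 56.3%, 57.4% and 55.8% GC, were lower in NT library 1 than in NT libraries 2 and 3, by log2 differences of -0.91, -0.58 and -0.23. MCM3 (51.7% GC) and MCM4 (47.7%) were level with them, at 0.014 and 0.025. MCM9, MCM10, MCM6 and MCM8, at 44.9%, 43.7%, 43.2% and 42.0% GC, were all higher in NT library 1, by 0.19, 0.31, 0.24 and 0.30. OXA library 1 leaned the same way against the other OXA libraries, with -0.36 for MCM5, -0.28 for MCM2 and 0.32 for MCM8. Over all tested genes, the median difference of NT library 1 from the other NT libraries was 0.24 in the tenth of genes with the lowest GC and -1.03 in the tenth with the highest.

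**Figure D3:**
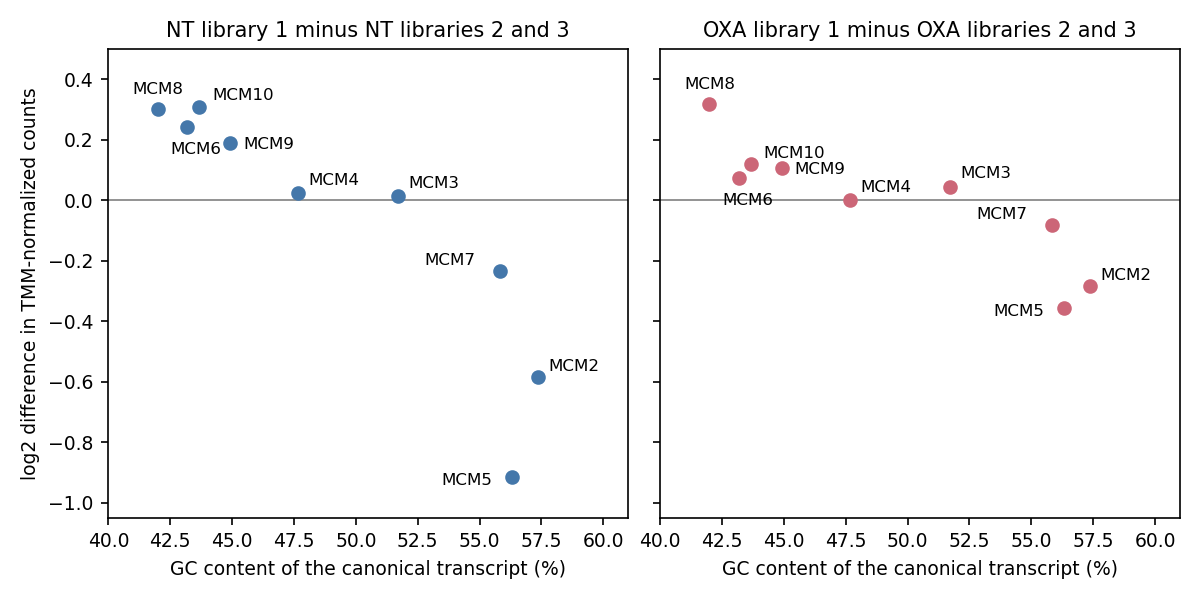
Log2 difference in normalized counts (y axis) between library 1 and the mean of libraries 2 and 3, for the 9 MCM genes in NT (left) and OXA (right), against the GC content of each canonical transcript (x axis, percent). The members under 45% GC lie above 0 and those over 55% below it in both panels, with the widest gap in NT.

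When library-specific trends on GC and length were taken out, a setting chosen after the data had been seen, the groups were apart in all 9 genes. The share of all tested genes that were apart in this setting was not computed. MCM2 then had 8987, 9162 and 10397 counts in NT against 5555, 5570 and 6844 in OXA, and MCM5 had 4643, 6661 and 6740 against 3307, 3810 and 4115. All 9 passed in that fit, against 11% of the tested genes called lower, with log2 fold changes between -0.94 in MCM6 and -0.46 in MCM9, and adding the block kept the count at 9, against 22.2%. MCM2 moved to -0.67 (edgeR adjusted p = 0.00233), MCM5 to -0.68 (edgeR adjusted p = 0.0114) and MCM7 to -0.65 (edgeR adjusted p = 0.000482). The factors by which the authors made their normalized values varied more for MCM4 than for the other subunits. They ran from 0.666 in OXA library 3 to 1.33 in NT library 1, so that the authors' values of MCM4 were 23891, 18525 and 14476 in NT and 11444, 10139 and 8150 in OXA, still without overlap. With these factors as offsets, 4 of the 9 were called lower, against 1.46% of the tested genes. For MCM6 these factors stayed between 0.889 and 1.09.

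Levels of different members were compared per length of the canonical transcript, as normalized CPM per kilobase. In NT the order was MCM7 (235 ± 21.5, SD, n = 3), MCM3 (155 ± 7.53), MCM4 (125 ± 1.54), MCM6 (88.7 ± 9.81), MCM2 (75.0 ± 16.6), MCM5 (48.0 ± 15.4), MCM10 (23.5 ± 3.02), MCM8 (7.59 ± 0.977) and MCM9 (4.58 ± 0.421). The libraries of MCM6 and MCM2 overlapped, as did those of MCM2 and MCM5, and the other neighbours in this order were apart. Thus the ring subunits, which enter the complex in equal number, differed 4.91-fold at the mRNA level between MCM7 and MCM5, and MCM8 and MCM9 were the lowest of the family.

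In OXA the levels per length were 162 ± 7.41 for MCM7, 102 ± 7.55 for MCM3, 70.4 ± 4.11 for MCM4, 50.8 ± 6.38 for MCM2, 44.2 ± 5.91 for MCM6 and 31.4 ± 4.27 for MCM5. MCM2 and MCM6 had changed places, but their libraries overlapped in both groups. MCM10 (14.0 ± 1.08), MCM8 (5.11 ± 0.689) and MCM9 (3.19 ± 0.369) followed in the same order as in NT. With the median length of the coding transcripts in place of the canonical one, MCM4 ranked above MCM3 and MCM6 became the lowest of the ring subunits in both groups, while MCM9 passed MCM8 in OXA, so parts of this order and the fold between subunits rest on the length used.

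**Figure D4:**
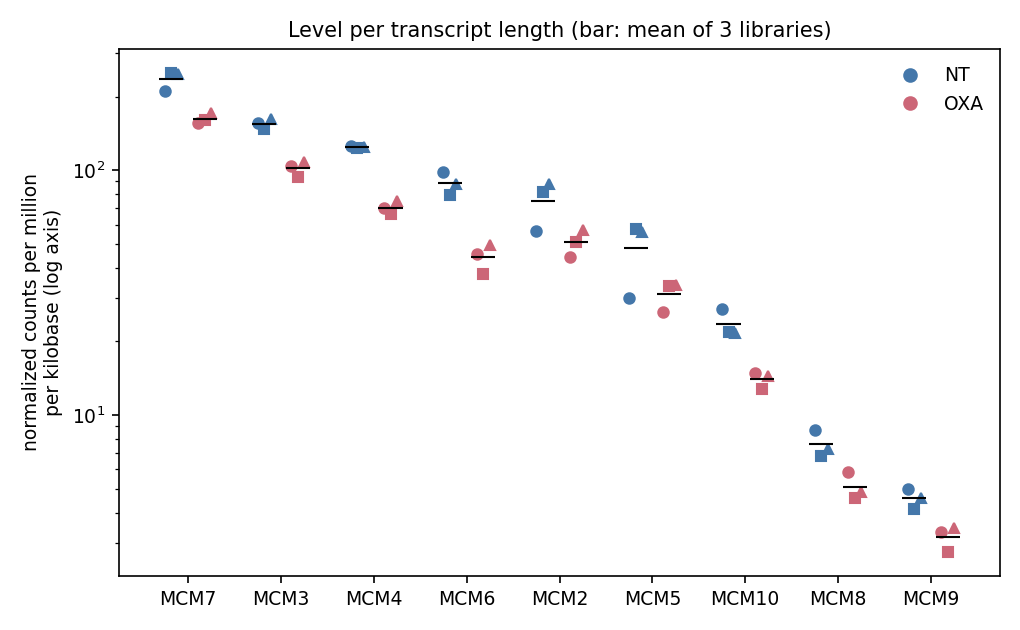
Level of each MCM gene per length of its canonical transcript (y axis, log scale, normalized CPM per kilobase) in NT (blue) and OXA (red) libraries, with bars at the means. MCM7 is the highest and MCM9 the lowest in both groups, and each gene's OXA mean is under its NT mean.

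The raw counts of MCM2 to MCM7 together took 2197, 2383 and 2469 CPM (counts scaled to a common library total) in NT libraries 1 to 3 and 1366, 1387 and 1533 in OXA. Within this sum, per length, the share of MCM6 went from 12.3% ± 2.03 (SD, n = 3) in NT to 9.56% ± 0.903 in OXA and that of MCM4 from 17.2% ± 1.22 to 15.3% ± 0.409, whereas that of MCM7 went from 32.4% ± 1.36 to 35.2% ± 0.842. To compare members without any scaling between libraries, the log2 ratio of each member to the geometric mean of the other ring subunits was taken inside each library. Since each ring subunit is set against the others, a fall in some raises the ratio of the rest, and these ratios are not independent. For MCM7 the ratio was 0.87, 0.91 and 0.82 in NT and 1.06, 1.08 and 0.99 in OXA (difference 0.18), with the groups apart. For MCM6 it was 0.29, -0.35 and -0.23 in NT and -0.35, -0.69 and -0.43 in OXA (difference -0.40), and the groups were apart, narrowly. For both the exact two-sided permutation test gave p = 0.1, the smallest that 3 against 3 libraries allow, and 0.45 after Benjamini-Hochberg adjustment over the 9 members. In the other 7 members the groups overlapped, with differences between -0.17 for MCM4 and 0.16 for MCM2. Taken between same-numbered libraries, without a test, the OXA minus NT difference of this ratio was 0.18, 0.17 and 0.17 for MCM7 and -0.64, -0.34 and -0.20 for MCM6. It had the same sign in all 3 pairs also for MCM4 (-0.31, -0.13 and -0.086) and for MCM2 (0.29, 0.13 and 0.067). MCM3, MCM8 and MCM9 were above 0 in each pair as well, but in pair 1 only by 0.0023, 0.022 and 0.003. The sign was mixed for MCM5 and MCM10. These ratios do not take out library trends on GC content, and they were not computed with such trends removed. In the fit with GC and length trends removed, MCM7 (log2 fold change -0.65) lay among MCM2 (-0.67), MCM3 (-0.63) and MCM5 (-0.68). MCM4 (-0.79) and MCM6 (-0.94) were lower there. Unequal change among the members is therefore a description here.

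The partners of the helicase were taken from a list of 31 genes for licensing, activation, fork progression, MCM binding and unloading. Of the 31, 11 were lower and 0 higher at an edgeR adjusted p under 0.05, against 2.29% and 2.78% of all tested genes. A log2 fold change below 0 was found in 28, against 46.7% of all tested genes, and the median was -0.40, against 0.023. DESeq2 and limma-voom also called 0 higher, and at an unadjusted p-value under 0.05 the count was 20 lower and 0 higher, against 11.1% and 10.7% of all tested genes. With the replicate block, 19 were lower and 0 higher, against 10.9% and 12.1%. In 20 of them every OXA library lay below every NT library, as in 14.4% of all tested genes.

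Among the loading factors, ORC1, the large subunit of the origin recognition complex, fell most (log2 fold change -0.94, SE 0.10, edgeR adjusted p = 0.00451), and CDC6, the ATPase that helps to load the ring, fell by 0.86 on the log2 scale (SE 0.11, edgeR adjusted p = 0.00825). ORC6 was also lower (log2 fold change -0.56, edgeR adjusted p = 0.0296), whereas ORC2 to ORC5, the remaining core subunits, had log2 fold changes between -0.28 and 0.12 and none passed. CDT1, which brings the ring to the origin, had a log2 fold change of -0.71 with a wide error (SE 0.29, edgeR adjusted p = 0.209) and passed with the replicate block (edgeR adjusted p = 0.0178). Its inhibitor geminin, encoded by GMNN, was lower as well (log2 fold change -0.80, SE 0.12, edgeR adjusted p = 0.0130).

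The genes whose products join the ring to make the CMG helicase were lower in 3 of 5 cases, GINS1, GINS2 and GINS3, with log2 fold changes of -0.65, -0.80 and -0.74 (edgeR adjusted p of 0.0429, 0.0111 and 0.0220). CDC45 had -0.41 (edgeR adjusted p = 0.0599) and GINS4 -0.35 (edgeR adjusted p = 0.114), and both passed with the replicate block (edgeR adjusted p of 0.0226 and 0.0164). Of 7 firing genes, TICRR (log2 fold change -0.71, edgeR adjusted p = 0.00940) and TOPBP1 (-0.61, edgeR adjusted p = 0.0399), which help to bring CDC45 and GINS to the ring, were lower. CDC7, the kinase that phosphorylates the ring, had a log2 fold change of -0.60 and missed the threshold (edgeR adjusted p = 0.0723), and the replicate block brought it to 0.00822. Of 4 fork genes, CLSPN, the mediator of checkpoint signals, fell by 0.99 on the log2 scale (SE 0.13, edgeR adjusted p = 0.00975). WDHD1, which links the helicase to polymerase alpha, fell by 0.57 (SE 0.12, edgeR adjusted p = 0.0395). TIMELESS (log2 fold change -0.28, edgeR adjusted p = 0.117) and TIPIN (-0.25, edgeR adjusted p = 0.346) did not pass. With the replicate block TIMELESS passed (edgeR adjusted p = 0.0144) and TIPIN did not (0.102).

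**Figure D5:**
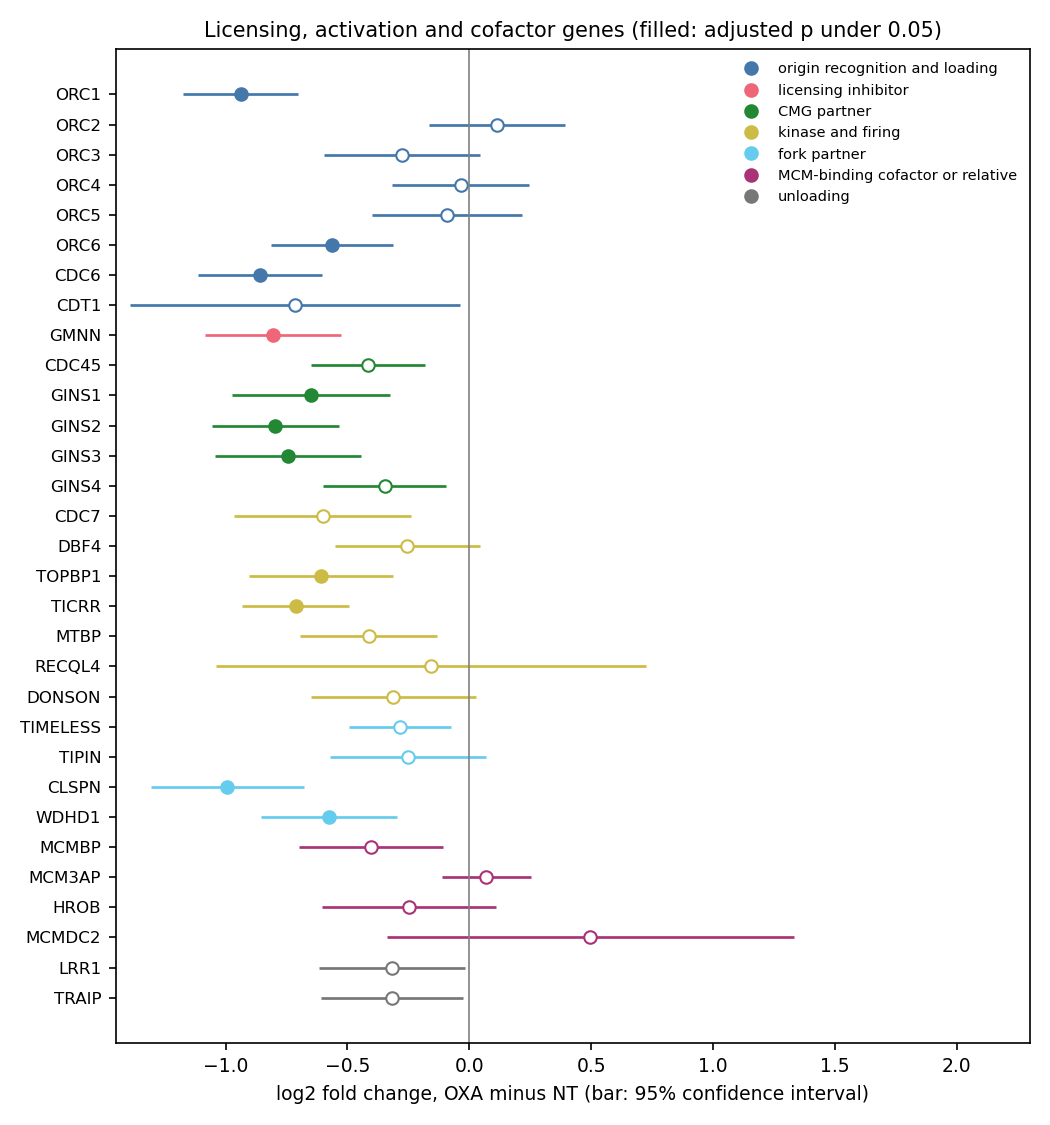
Log2 fold change (x axis, OXA minus NT) with 95% confidence interval for the 31 licensing, activation and cofactor genes, coloured by role and filled where the edgeR adjusted p is under 0.05. The 11 filled genes all lie below 0, and ORC2, MCM3AP and MCMDC2 are the 3 above 0.

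None of the 4 genes that bind MCM proteins or resemble them, and neither of the 2 unloading genes, passed in edgeR. MCMBP, a binding partner of the ring subunits outside chromatin, had 12920 ± 1773 normalized counts in NT against 9770 ± 1017 in OXA (log2 fold change -0.40, SE 0.13, edgeR adjusted p = 0.117), and with the replicate block it passed (edgeR adjusted p = 0.00940). HROB, which loads MCM8 and MCM9 and is listed under the older symbol C17orf53, had -0.25 (95% confidence interval -0.61 to 0.11). MCM3AP, which carries the name of MCM3 but encodes an mRNA export factor, had 0.070 (95% confidence interval -0.11 to 0.25). MCMDC2, a relative with a role in meiosis, was close to silent at 19.0 ± 4.96 and 26.9 ± 9.34 normalized counts. Of the 11 called genes, ORC1 passed in all 6 leave-one-out fits, GINS2 in 5, CDC6, TICRR and CLSPN in 4, GMNN and GINS3 in 2, and ORC6, GINS1, TOPBP1 and WDHD1 in 1, the fit without NT library 1. E2F-type letters were found in the promoter windows of 14 of the 26 partners that had one, against 3.99% of all genes with a window. The CCAAT box was found in 15 of the 26, against 39.7%, and the CHR letters in 7, against 27.9%.

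The genes whose course over the 6 libraries was nearest to the mean of the ring subunits were looked for among all tested genes, by the root mean square difference of log2 values centred over the libraries. They were GPR137C (0.041), CDCA5 (0.043), BMP8B (0.055), BACH2 (0.056) and HECA (0.059). CDCA5 encodes sororin, which holds sister chromatids together after replication, and had 4651 ± 347 normalized counts in NT against 2968 ± 250.3 in OXA. Of the ring subunits themselves MCM7 was nearest to their mean (0.080), with 12 tested genes closer. MCM5 was the farthest (0.253), with 1392 closer, next to MCM6 (0.247), with 1254. The mean was taken over these same subunits, so their nearness to it is partly built in. BACH2 encodes a transcription factor, and at 208 ± 26.8 and 123 ± 10.6 normalized counts it was among the less abundant of these genes.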

How the data were processed

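RNA-seq libraries of 3 untreated and 3 oxaliplatin-treated HCT116 samples were compared, grouped by sample title. Paired reads (100 nt) were aligned to GRCh38 by STAR 2.7.5b. The submitters' processing notes also name Trimmomatic 0.32 and RSEM 1.3.3, and the gene annotation and strand setting are not given in the sources used here. The authors deposited whole-number counts, used here, and a normalized signal (count times a factor per gene and library, from DESeq2), used only for alternatives.

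Genes were filtered with filterByExpr (minimum count 10, minimum total 15), scaled by TMM and tested with edgeR 4.0.16 (quasi-likelihood, R 4.3.3), with Benjamini-Hochberg adjustment over 13727 genes and calls at an adjusted p-value under 0.05. Normalized counts are TMM-scaled to the mean library. The standard error is the log2 fold change over the square root of F. Errors are the spread between libraries. Lengths, GC content and positions came from GENCODE release 44, known for 99.6% of tested genes.

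Alternatives were DESeq2 1.42.0, limma-voom (limma 3.58.1), other factors and filters, the authors' factors, a replicate block, each library left out and, added after seeing the data, library trends on GC content and length removed (splines with 5 degrees of freedom). Deviations of same-numbered libraries from their group means correlated at 0.55, 0.54 and 0.31, over the limit of 0.1. The numbers come from the titles, and what they stand for is not stated. Steps were tested on simulated data.

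Members and lists were chosen with earlier results of these data known. Named are the 9 members, partners with an adjusted p-value under 0.05 (up to 12, by p) or that are exceptions to a count of 5 or fewer, CDKN1A and CCNE2, and the 5 genes nearest to the mean course of MCM2 to MCM7. Other genes were named after their values were seen.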

Additional observations from a re-analysis of the deposited data

How the results depend on the processing

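The log2 fold change of each of the 9 MCM genes was negative under all 18 alternatives. The number of MCM genes called lower, 5 in this comparison, was 8 with DESeq2 and 9 with the replicate block, with the block and the authors' factors, with GC and length trends removed, and with both, and it ran from 1 (without OXA library 1) to 8 (without NT library 1) when single libraries were left out. With the authors' factors and no block, MCM10 missed the threshold (edgeR adjusted p = 0.0817). The number of licensing, activation and cofactor genes called lower, 11, was 19 with the block, 18 with the block and the authors' factors, 21 with trends removed and 26 with the block and trends removed, where 1 was called higher, and it ran from 1 to 13 over the libraries left out. Over all genes, 315 were lower and 381 higher. Lower calls were 493 with upper-quartile factors, 511 with library totals only, 200 with the authors' factors, 578 with DESeq2, 1493 with the replicate block, 1167 with the block and the authors' factors, 1505 with trends removed and 3040 with both, and 19 to 571 over the libraries left out. Higher calls were 241 with the authors' factors, 609 with DESeq2, 1664 with the block, 1319 with the block and the authors' factors, 1567 with trends removed and 3212 with both, and 66 to 623 over the libraries left out. The OXA minus NT difference in the within-library log2 ratio of MCM10 to the ring subunits, -0.062, turned to 0.076 with the authors' values. That of MCM9, 0.15, became 0.33 with them, and its groups were then apart, as those of MCM6 and MCM7 still were. For each of these genes the exact permutation test gave p = 0.1, and 0.3 after Benjamini-Hochberg adjustment. The cause of these shifts was not tested. Among the members and partners MCMDC2 had the lowest counts, at 15 to 34 a library, and a limit from depth was not tested.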
